A study of Mus with 4 samples.

Results

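Glycolysis and hypoxia response genes were examined in Six2-positive nephron progenitor cells (NPCs) of mice in which the prorenin receptor (PRR) was targeted for deletion in these cells. The set holds 38 genes of glucose and lactate transport, glycolysis, the pentose phosphate pathway and the response to low oxygen, given as a list of gene names, with no measured value in the rule, although earlier results of these data were known when it was drawn up. Of the 38 genes, 36 were matched to a probe, among 16358 gene symbols matched on the array. *Gapdh* and *Pgd* were not matched and are not analysed here. The 36 genes were held by 55 probes, all of which were tested. For the 13 genes with several probes, the values are those of the brightest probe (highest mean signal over both channels), and the other probes are described apart.

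Kidneys were taken at embryonic day 15.5 and GFP-positive cells were FACS-isolated from them and pooled. *Mut* pools came from *Six2*Cre+/*PRR*flox/flox mice and *WT* pools from *Six2*Cre+/*PRR*+/+ littermates, so both genotypes carried the *Six2GFPCre TGC* transgene, which expresses Cre and GFP in nephron progenitors. Arrays 1, 2 and 3 each carried a *Mut* pool in Cy3 and the like-numbered *WT* pool in Cy5, and their log2 ratio is that of *Mut* over *WT*. The remaining array, here the control array (WT vs WT in the plots), paired *WT* pool 1 in Cy5 with *WT* pool 2 in Cy3, and its log2 ratio is that of pool 2 over pool 1. The sources used here do not say whether the pools of a genotype came from separate litters. Every P thus rests on the spread between these arrays, which may be technical. The limma fit behind each SE moderates this spread towards that of all probes. Such an SE, and its P, can be smaller or larger than a gene's own arrays would give. In pooled cells, fewer cells of a type and less RNA per cell cannot be told apart.

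Glucose enters cells through GLUT transporters and is split by the glycolytic enzymes into pyruvate, with a net gain of ATP. Pyruvate is either reduced by lactate dehydrogenase to lactate, which leaves the cell through monocarboxylate transporters, or oxidized in mitochondria by way of pyruvate dehydrogenase. The pentose phosphate pathway branches off at glucose-6-phosphate and supplies NADPH and ribose. When oxygen is available, the prolyl hydroxylases of the EGLN family mark the hypoxia-inducible factor (HIF) alpha subunits for removal by the VHL ligase, and when it is scarce HIF activates genes for glucose uptake, glycolysis and lactate formation. Nephron progenitors of the fetal kidney are known for a high rate of glycolysis, which falls as they age. PRR is an accessory subunit of the V-ATPase, the proton pump of lysosomes and other compartments.

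The share of probes well above background was 45.1% to 51.1% in Cy3 and 54.1% to 58.3% in Cy5 over the 4 arrays. The probe of *Atp6ap2*, the gene of PRR, had a log2 ratio of -0.08, -0.19 and -0.25 on arrays 1, 2 and 3 (mean -0.17 ± 0.055 SE, n = 3 arrays, adjusted P = 0.0351, limma) and of -0.19 on the control array. The part of the transcript that this probe binds was not determined, so it does not check the labels, and all directions here depend on the dyes named in the labels. The dyes were not exchanged, so genotype and dye cannot be told apart on arrays 1 to 3. Across probes the control array, without any difference of genotype, correlated with arrays 1, 2 and 3 at a Pearson r of 0.398, 0.435 and 0.45. The control array shares *WT* pool 1 with array 1 and *WT* pool 2 with array 2, which can move the r of these arrays. It shares no pool with array 3. *WT* pool 1 was run in Cy5 on array 1 and on the control array. Its signal moved by over 1.5-fold between these runs at 176 of 16355 genes (1.08%). *Mut* and *WT* of array 1 differed by over 1.5-fold at 666 (4.07%). The former share compares the same dye between arrays and the latter both dyes of array 1, so they are not like measures. All 10 nephron progenitor markers were well above background in both channels of arrays 1 to 3. Their summed signal was 26530 to 28460 in the *Mut* pools, 29510 to 31230 in the *WT* pools, and 27740 and 29970 on the control array. The summed signal of 10 erythroid markers was 3762 to 3935 in *Mut* and 1965 to 2133 in *WT*, that of 8 stroma markers 7353 to 8760 and 6147 to 6477, and that of 6 macrophage markers 681.2 to 699.2 and 747.2 to 782.9. On the control array the erythroid sum was 3824 and 4313 in *WT* pools 2 and 1, within and above the range of *Mut*. The stroma sum there was 7402, within the range of *Mut*, and 6554, and the macrophage sums were 662.6 and 680.5, below every *Mut* pool. Of the 10 erythroid markers 5, *Gata1* among them, were not well above background in *Mut* or in *WT* on any of arrays 1 to 3. The sums were 820.3 to 856 in *Mut* and 801.5 to 818.7 in *WT* for 8 ureteric bud markers, and 877.1 to 890.3 and 875.5 to 907.1 for 8 endothelium markers. The sums do not stand for every marker. Of the 10 nephron progenitor markers 5 fell past the adjusted P (*Six2*, *Osr1*, *Sall1*, *Meox1* and *Crym*) and 2 rose (*Eya1* and *Itga8*), and *Crym* had by itself a normalized log2 signal of 13.60 to 14.03. *Hba-a1*, at a log2 ratio of 1.17, was the only erythroid marker called, and 4 of the 10 rose past the adjusted P. Of the 8 stroma markers 6 rose past it, and 3 of these were called, *Col1a1* at 0.89, *Col3a1* at 0.78 and *Pdgfrb* at 0.60. *Foxd1* and *Lum* fell past it, at -0.30 and -0.42. The part of these cell types in the results was not tested.

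A gene was called where its adjusted P was under 0.05 and it changed over 1.5-fold. By this rule 1 of the 36 genes was called higher in *Mut* and 2 lower. The gene called higher was *Slc16a1*, which encodes the monocarboxylate transporter MCT1, and the genes called lower were *Eno1*, which encodes the glycolytic enzyme enolase, and *Egln1*, which encodes the oxygen-sensing prolyl hydroxylase PHD2. Over all 16355 genes tested at their brightest probe, 0.434% were called higher and 1.59% lower, or 2.02% together, against 2.78%, 5.56% and 8.33% of the set. Past the adjusted P without the fold minimum, 6 genes of the set rose and 9 fell, 15 of 36 or 41.7%, while 33.0% of all genes passed, 14.4% higher and 18.6% lower. In the accounts of single roles below, rose and fell mean past the adjusted P, whatever the fold, and their counts stand beside these shares of all genes. The set is brighter than the array, with 32 of 36 genes well above background in both channels throughout arrays 1 to 3, against 9352 of 16355. When probes not well above background throughout arrays 1 to 3 in either channel were left out, 48.6% of 10588 genes passed the adjusted P. Of the 21952 probes kept there, 226 were called higher and 600 lower. With every array centred on its median in place of loess normalization, 5 of the 6 genes that rose had a log2 ratio below 0, but bright genes as a whole moved down by that centring (a median of -0.50 over 9352 genes), and relative to them all 6 were above 0. Neither that centring nor an offset of 0 in the background correction left any gene of the array past the adjusted P, so the passes lost there are not particular to this set. With the deposited log ratios 5 of the 15 genes passed (*Slc16a1*, *Slc16a3*, *Aldoc*, *Pfkfb3* and *Ldha*), where 12.2% of all genes did. The median log2 ratio of the 36 genes was -0.0018, beside -0.0029 for all genes, with 18 genes above 0 and 18 below. Without regard to sign the median size was 0.09 for the set and 0.10 for all genes.

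**Figure D1:**
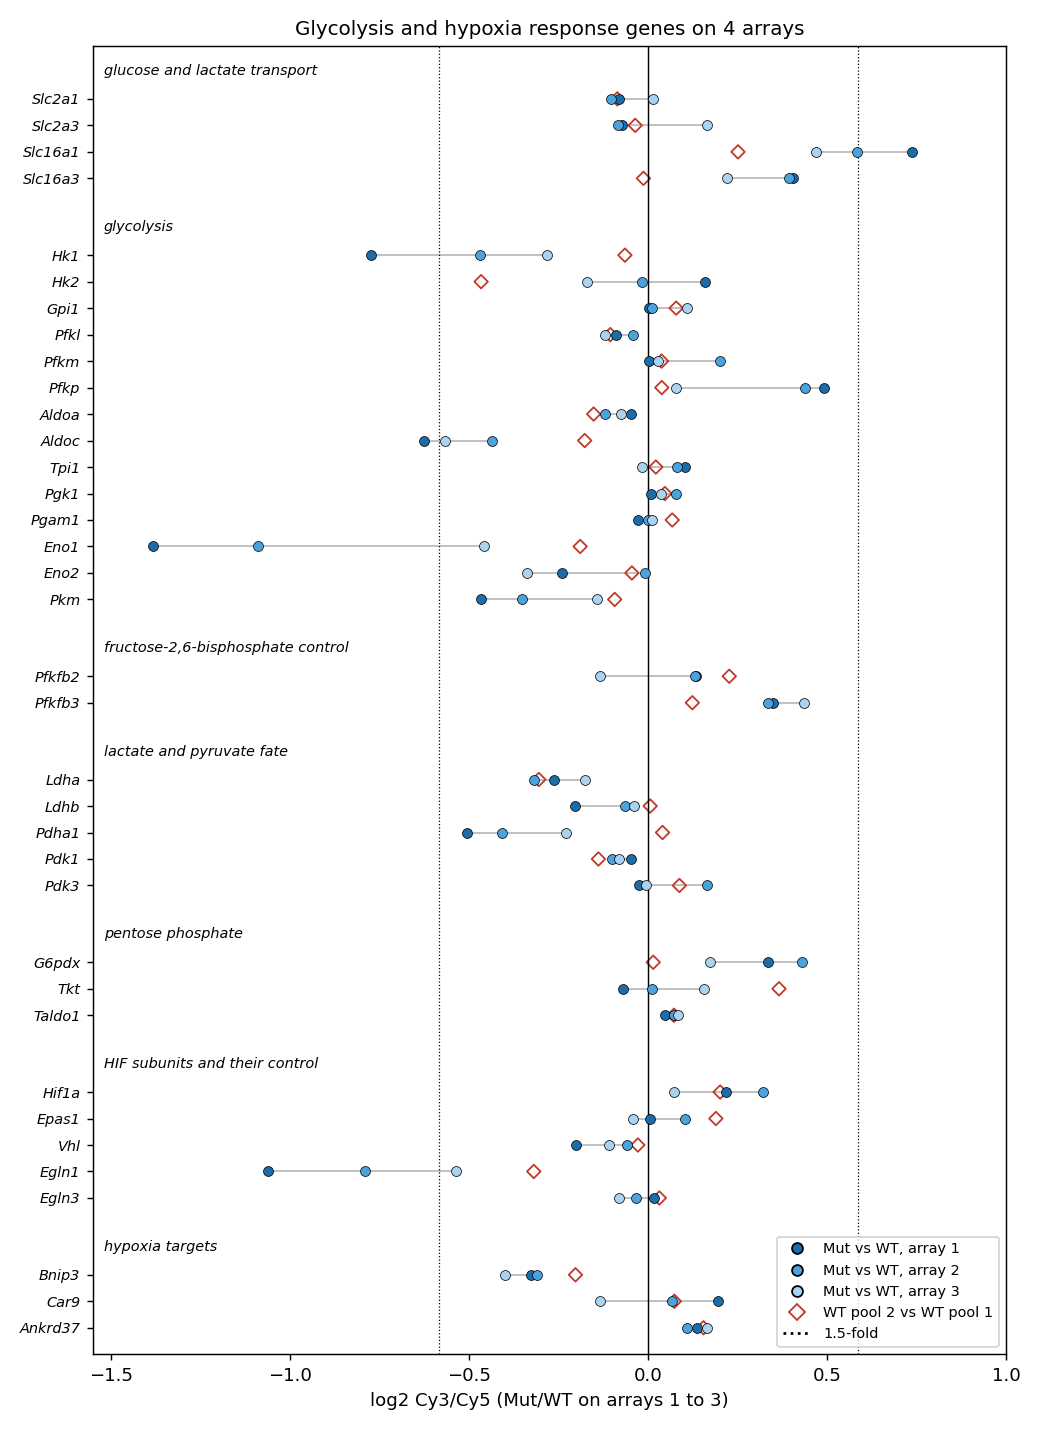
The log2 Cy3/Cy5 ratio of the brightest probe of 36 genes is plotted per array by role, with filled circles for *Mut*/*WT* on arrays 1 to 3 and open diamonds for *WT* pool 2 over *WT* pool 1, and dotted lines at 1.5-fold. Most genes lie close to 0 on all arrays, while *Eno1* and *Egln1* extend to -1.38 and -1.06 on array 1 and *Slc16a1* to 0.74, and the diamonds of these 3 genes lie on the same side of 0 (with median centring *Slc16a1* stood at -0.0037).

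Among the 4 transporters, both monocarboxylate transporters rose in *Mut*, of which *Slc16a1* was called, and neither glucose transporter passed the adjusted P. With median centring *Slc16a1* and *Slc16a3* stood at -0.0037 and -0.25. *Slc16a1* had a normalized log2 signal of 10.77, 10.54 and 10.40 in *Mut* pools 1, 2 and 3 and of 10.04, 9.96 and 9.93 in the *WT* pools. All *Mut* pools lay above all *WT* pools, with *Mut* pool 1 the highest and *Mut* pool 3 the lowest of the 3. The log2 ratio was 0.74, 0.58 and 0.47 on arrays 1, 2 and 3, on average 0.60 ± 0.060 (SE, 1.51-fold, n = 3 arrays, adjusted P = 3.71e-05), close above the 1.5-fold limit. It was 0.53 without array 1, short of that limit. The same ratio was 0.25 between both *WT* pools of the control array, where *WT* pool 2 in Cy3 had a signal of 10.35, near *Mut* pool 3.

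*Slc16a3*, the lactate exporter MCT4, had a normalized log2 signal of 10.42, 10.31 and 10.14 in the *Mut* pools and of 10.02, 9.92 and 9.92 in the *WT* pools. The groups did not overlap, and the log2 ratio was 0.34 ± 0.0565 (SE, adjusted P = 0.000924), a change of 1.27-fold. Both *WT* pools of the control array, at 10.18 and 10.20, lay between *Mut* pools 2 and 3. *Slc2a1*, the GLUT1 glucose transporter, had a log2 ratio of -0.06 ± 0.0527 (SE, adjusted P = 0.448). *Slc2a3*, the GLUT3 transporter, was at 0.0021 ± 0.0609 (SE, adjusted P = 0.984), negative on arrays 1 and 2 and positive on array 3.

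Of the 14 glycolytic enzymes with a probe, 5 fell in *Mut*, *Hk1*, *Aldoc*, *Eno1*, *Eno2* and *Pkm*, and 1, *Pfkp*, rose past the adjusted P, beside 18.6% and 14.4% of all genes, and of these 6 only *Eno1* was called. The enzymes *Hk2*, *Gpi1*, *Pfkl*, *Pfkm*, *Aldoa*, *Tpi1*, *Pgk1* and *Pgam1* did not pass the adjusted P. The largest fall was that of *Eno1*, the enolase that acts before the last step of glycolysis. Its normalized log2 signal was 11.02, 10.77 and 10.80 in *WT* pools 1, 2 and 3, and 9.64, 9.68 and 10.34 in the *Mut* pools. The groups did not overlap, but *Mut* pool 3 lay well above *Mut* pools 1 and 2, and the log2 ratio of -1.38, -1.09 and -0.46 had an SD of 0.472 between arrays. The mean of -0.98 is 1.97-fold lower (SE 0.125, n = 3 arrays, adjusted P = 0.000165). It was -1.24 without array 3 and -0.77 without array 1, and was called in both. The call was lost with the deposited log ratios (-1.01, adjusted P = 0.122). On the control array the ratio was -0.19, and its *WT* signals, 10.63 and 10.82, lay above all *Mut* pools. *Eno1* is held by 1 probe, and an intronless copy of this gene with nearly the same sequence is known in the mouse, so their signals cannot be told apart here.

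*Eno2*, the enolase best known from neurons, fell by 0.20 on the log2 scale (SE 0.065, adjusted P = 0.0413), and its *Mut* signals of 6.89, 7.02 and 6.82 reached close to the *WT* signals of 7.13, 7.03 and 7.16. It did not pass without array 1 (-0.17, adjusted P = 0.0781) or without array 3 (-0.12, adjusted P = 0.18), nor with the deposited log ratios (-0.42, adjusted P = 0.241). With an offset of 0 it was -0.36 and with median centring -0.38. Its other probe was at -0.06 and did not pass (adjusted P = 0.483), nor did the median over both (-0.13, adjusted P = 0.144).

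*Aldoc*, an aldolase isozyme, had a normalized log2 signal of 7.49, 7.51 and 7.44 in *Mut* and of 8.11, 7.95 and 8.01 in *WT*. The *Mut* pools were alike and well apart from the *WT* pools, and the log2 ratio of -0.63, -0.44 and -0.57 averaged -0.54 ± 0.0557 (SE, 1.46-fold, adjusted P = 4.13e-05), short of 1.5-fold. It passed 1.5-fold without array 2, at -0.60, and with the deposited log ratios, at -0.77. On the control array, however, both *WT* pools had the level of *Mut*, 7.40 in Cy3 and 7.58 in Cy5, and *WT* pool 1 itself differed by -0.54 between this array and array 1.

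*Hk1*, the hexokinase that traps glucose in most cell types, had a normalized log2 signal of 6.98, 7.03 and 7.27 in *Mut* and of 7.75, 7.50 and 7.55 in *WT*, without overlap. Its log2 ratio was -0.77, -0.47 and -0.28 on arrays 1, 2 and 3, on average -0.51 ± 0.0784 (SE, adjusted P = 0.000573). Without array 3 it was -0.62 and passed 1.5-fold, while with the deposited log ratios it was -1.07 and did not pass the adjusted P (0.112). With an offset of 0 it was -0.78, and the median over its probes was -0.16 (adjusted P = 0.0484). *Hk2*, the isozyme that HIF induces in many cells, was at 0.16, -0.02 and -0.17, a mean of -0.01 ± 0.0644 (SE, adjusted P = 0.924). Its ratio between both *WT* pools, -0.47, was larger than any of its *Mut*/*WT* ratios, and *WT* pool 1 was 0.72 higher on the control array than on array 1, the only gene of the set past 1.5-fold in that comparison.

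*Pkm*, the pyruvate kinase of the last glycolytic step, had a normalized log2 signal of 10.51, 10.83 and 11.02 in *Mut* and of 10.97, 11.18 and 11.16 in *WT*. *Mut* pool 3 lay above *WT* pool 1, so the groups overlapped, although *Mut* was the lower channel on each array (-0.47, -0.35 and -0.14). The mean fall was 0.32 on the log2 scale (SE 0.0641, adjusted P = 0.00298).

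*Pfkp*, the platelet isozyme of phosphofructokinase, rose by 0.34 ± 0.0741 (SE, adjusted P = 0.00534, limma). Its size depended on the treatment of background, at 1.5 with the deposited log ratios (adjusted P = 0.194) and 0.68 with an offset of 0 (adjusted P = 0.156), and with median centring it was 0.38 (adjusted P = 0.172). The median over its probes was 0.17 (adjusted P = 0.0373). Its signals lay near background, and each channel was well above it on 2 of 3 arrays. The log2 ratio was 0.49 and 0.44 on arrays 1 and 2 and 0.08 on array 3, where *Mut* pool 3, at 6.44, fell among the *WT* pools at 6.37 to 6.50. The liver and muscle isozymes, *Pfkl* and *Pfkm*, were at -0.08 ± 0.0514 (SE, adjusted P = 0.248) and 0.08 ± 0.0569 (SE, adjusted P = 0.333). Of the remaining enzymes, *Gpi1* was at 0.04 ± 0.0525 (SE), *Aldoa* at -0.08 ± 0.0513 (SE), *Tpi1* at 0.06 ± 0.0528 (SE), *Pgk1* at 0.04 ± 0.0512 (SE) and *Pgam1* at -0.0058 ± 0.0508 (SE), with an adjusted P between 0.264 and 0.946.

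**Figure D2:**
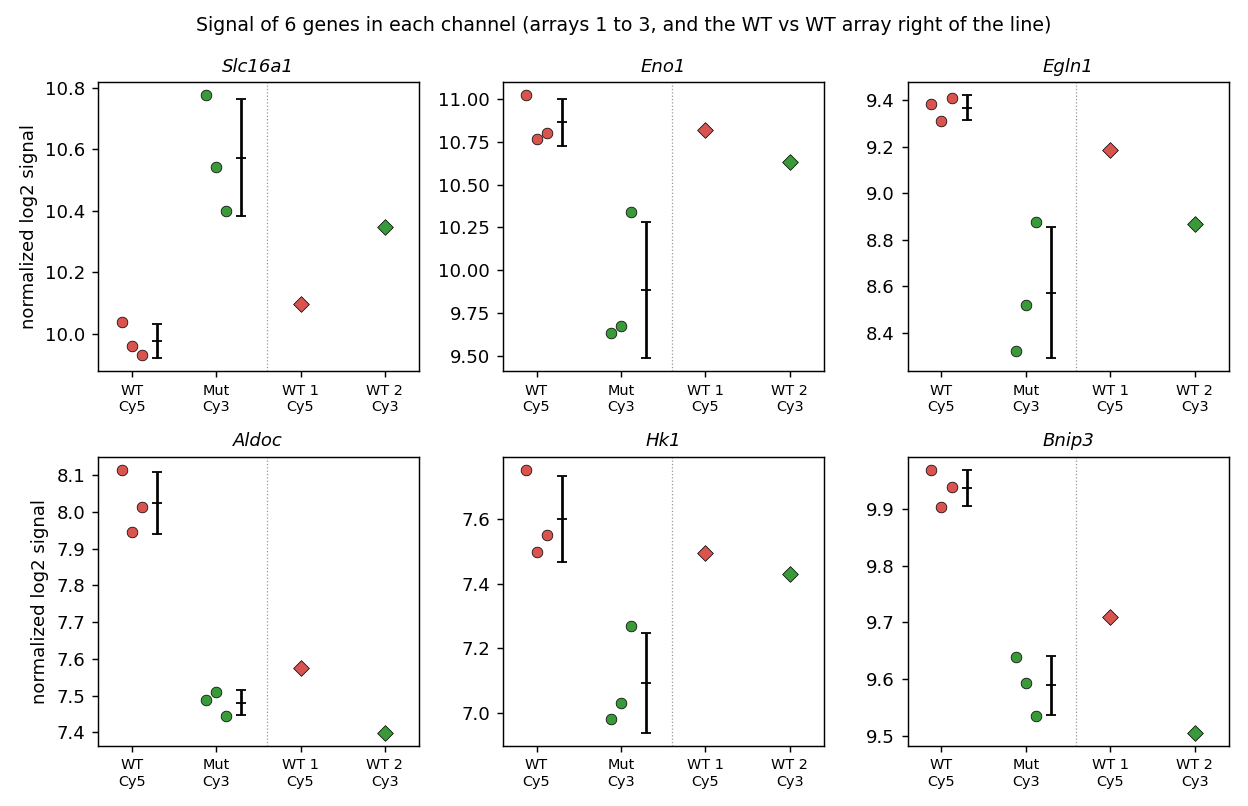
The normalized log2 signal of 6 genes is plotted per pool, with *WT* in Cy5 (red) and *Mut* in Cy3 (green) on arrays 1 to 3, their mean and SD as bars beside the points, and both *WT* pools of the control array as diamonds right of the dotted line; each vertical axis has its own range and does not start at 0. *Mut* and *WT* do not overlap in any of the 6 panels, while for *Aldoc* and *Bnip3* *WT* pool 2 in Cy3, at 7.40 and 9.51, lies below every *Mut* pool (with median centring *Slc16a1* stood at -0.0037).

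The PFKFB enzymes make and break a regulatory sugar bisphosphate that activates phosphofructokinase. *Pfkfb3*, whose product favours synthesis of this activator, had a normalized log2 signal of 8.48, 8.54 and 8.53 in *Mut* and of 8.13, 8.20 and 8.09 in *WT*. The groups did not overlap, the log2 ratio of 0.35, 0.34 and 0.43 had an SD of 0.0542, and the mean was 0.37 ± 0.0522 (SE, 1.29-fold, adjusted P = 0.000301), while with median centring it was -0.10. *WT* pool 2 in the same dye, at 8.50, was at the level of *Mut*. The other probes of *Pfkfb3*, dim in *Mut* on all 3 arrays, were at 0.0067 and -0.06, and the median over its probes was 0.02 (adjusted P = 0.756). *Pfkfb2* was at 0.04 ± 0.0628 (SE, adjusted P = 0.639), positive on arrays 1 and 2 and negative on array 3.

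Of the 5 genes of lactate and pyruvate fate, *Ldha* and *Pdha1* fell without a call and *Ldhb*, *Pdk1* and *Pdk3* did not pass the adjusted P. *Ldha*, the lactate dehydrogenase subunit that favours lactate formation, had a normalized log2 signal of 13.38, 13.22 and 13.33 in *Mut* and of 13.64, 13.54 and 13.51 in *WT*. The groups did not overlap, and the log2 ratio was -0.26, -0.32 and -0.18, a mean of -0.25 ± 0.0533 (SE, adjusted P = 0.00416), which without array 2 was -0.22 and did not pass (adjusted P = 0.0599). The ratio between both *WT* pools, -0.31, was larger than this mean, which no other of the 15 genes showed. *Pdha1*, the catalytic subunit of pyruvate dehydrogenase, had signals of 9.43, 9.30 and 9.47 in *Mut* and of 9.94, 9.71 and 9.70 in *WT*. The mean of -0.50, -0.41 and -0.23 was -0.38 ± 0.0608 (SE, adjusted P = 0.000722), and both *WT* pools of the control array, at 9.52 and 9.48, lay closer to *Mut* than to *WT*. *Ldhb*, the subunit that favours lactate use, was at -0.10 ± 0.0549 (SE, adjusted P = 0.185). *Pdk1* and *Pdk3*, kinases that switch pyruvate dehydrogenase off, were at -0.08 ± 0.051 (SE, adjusted P = 0.283) and 0.04 ± 0.0563 (SE, adjusted P = 0.591).

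In the pentose phosphate pathway *G6pdx*, the enzyme that commits glucose-6-phosphate to this branch, rose in *Mut*, and *Tkt* and *Taldo1*, which return its sugars to glycolysis, did not pass. *G6pdx* had a normalized log2 signal of 10.20, 10.36 and 10.14 in *Mut* and of 9.87, 9.93 and 9.97 in *WT*, without overlap. Its log2 ratio was 0.33, 0.43 and 0.17, a mean of 0.31 ± 0.0594 (SE, adjusted P = 0.00217), and with median centring it was -0.28. Both *WT* pools of the control array, at 10.16 and 10.14, had the level of *Mut* pool 3. *Tkt* was at 0.03 ± 0.0576 (SE, adjusted P = 0.702) with a ratio of 0.37 between both *WT* pools, and *Taldo1* at 0.07 ± 0.0507 (SE, adjusted P = 0.345).

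Of the 5 genes of HIF and its control, *Egln1* fell and was called, *Hif1a* rose without a call, and *Epas1*, *Vhl* and *Egln3* did not pass the adjusted P. *Egln1* had a normalized log2 signal of 9.38, 9.31 and 9.41 in the *WT* pools and of 8.32, 8.52 and 8.88 in the *Mut* pools. The *WT* pools lay close together, all *Mut* pools lay below them, and *Mut* pool 3 was the nearest. The log2 ratio of -1.06, -0.79 and -0.54 averaged -0.80, a fall of 1.74-fold (SE 0.0812, n = 3 arrays, adjusted P = 4.01e-05). The call was lost with the deposited log ratios (-0.95, adjusted P = 0.0778). Between both *WT* pools the ratio was -0.32, and *WT* pool 2 in Cy3, at 8.87, had the level of *Mut* pool 3.

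*Hif1a*, the oxygen-regulated HIF alpha subunit, had signals of 9.03, 8.99 and 8.77 in *Mut* and of 8.82, 8.67 and 8.70 in *WT*, and *Mut* pool 3 fell among the *WT* pools. The mean of 0.22, 0.32 and 0.07 was 0.20 ± 0.0588 (SE, adjusted P = 0.0222), the same as the 0.20 between both *WT* pools, and with median centring it was -0.32. Without array 2 it was 0.15 and did not pass (adjusted P = 0.218). *Vhl*, the recognition subunit of the ligase that removes HIF alpha, was at -0.12 ± 0.0535 (SE, adjusted P = 0.107). *Epas1*, the other main HIF alpha subunit, had neither channel well above background on arrays 1 to 3, and its log2 ratio was 0.02 ± 0.0536 (SE, adjusted P = 0.784). *Egln3*, a prolyl hydroxylase that HIF induces, cleared background in *WT* on 2 arrays and in *Mut* on 0, with a log2 ratio of -0.03 ± 0.0519 (SE, adjusted P = 0.677).

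Of 3 known HIF targets outside glucose metabolism, *Bnip3* fell and *Car9* and *Ankrd37* did not pass. *Bnip3*, a mitophagy receptor, had a normalized log2 signal of 9.64, 9.59 and 9.54 in *Mut* and of 9.97, 9.90 and 9.94 in *WT*. The log2 ratio of -0.33, -0.31 and -0.40 was even across arrays (SD 0.0483), with a mean of -0.35 ± 0.0519 (SE, adjusted P = 0.000474), while *WT* pool 2 in the same dye, at 9.51, lay below the *Mut* pools. *Ankrd37* was at 0.14 ± 0.051 (SE, adjusted P = 0.0637), with 0.15 between both *WT* pools. *Car9*, a cell surface carbonic anhydrase, cleared background in *WT* on 2 arrays and in *Mut* on 0, and was at 0.04 ± 0.0645 (SE, adjusted P = 0.662).

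At the level of probes, 2 of the 55 rose past both thresholds, both of *Slc16a1*, and 2 fell, 1 each of *Eno1* and *Egln1*, while 0.551% of all 41166 probes rose and 1.46% fell, or 2.01% together. Past the adjusted P alone 8 of the 55 rose and 14 fell, and of all probes 13.2% rose and 16.4% fell, or 29.6% together. The second probe of *Slc16a1* gave 0.72, 0.60 and 0.45 on arrays 1, 2 and 3, a mean of 0.59 (adjusted P = 4.07e-05). Its dimmest probe went the other way at -0.25 (adjusted P = 0.00763), with *WT* well above background on all 3 arrays and *Mut* on 0. The fall at that probe is at least 1.05-fold in these normalized values, in which its *WT* signal is set against the higher of its own *Mut* signal and the dimmest signal well above background, and this bound is open to dye bias.

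The second probe of *Egln1* fell by 0.49 on the log2 scale (adjusted P = 0.000587), at -0.75, -0.43 and -0.29 on the 3 arrays, with *Mut* well above background on 1 array. *Ldha* and *Pdha1* fell at both of their probes, *Ldha* by 0.46 at its second probe (adjusted P = 0.00108) and *Pdha1* by 0.33 (adjusted P = 9e-04). The second probe of *Ldha* had the lower ratio of both on all 3 arrays, at -0.70, -0.49 and -0.20, and on array 3 the probes were close. Without array 3 the second probes of *Egln1* and *Ldha* passed 1.5-fold as well, at -0.59 and -0.60, and without array 1 or array 2 the second probe of *Slc16a1* was not called.

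The 5 probes of *Hk1* ranged from -0.51 to 0.23. The bright ones fell at -0.51 and -0.39 (adjusted P = 0.00314), the next in brightness was at -0.16 (adjusted P = 0.0506), and the last, at 0.06 and 0.23, had neither channel well above background, although the one at 0.23 had an adjusted P of 0.00964. With the deposited log ratios that dim probe was called higher, at 1.95 (adjusted P = 0.0402), opposite to the bright probes. The second probe of *Pfkp* was at 0.01 (adjusted P = 0.883) with *Mut* not above background on arrays 1 to 3. For *Aldoa*, *Pfkfb2*, *Pgk1*, *Pdk3* and *Tkt* no probe passed the adjusted P, and the probes of each of these genes differed by at most 0.149.

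**Figure D3:**
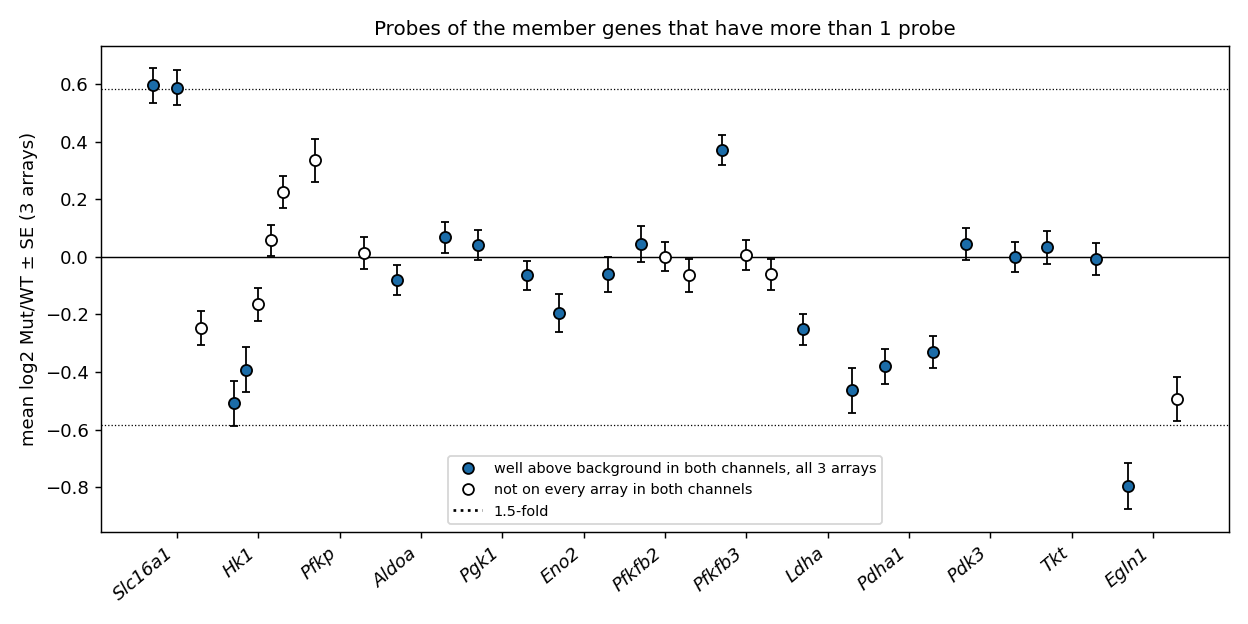
The mean log2 ratio of each probe of the 13 genes with more than 1 probe is plotted with its limma SE over 3 arrays, filled where the probe was well above background in both channels on all 3 arrays, with dotted lines at 1.5-fold. *Slc16a1* and *Hk1* have the widest spreads, 0.843 and 0.734, with probes on both sides of 0. Probes of *Aldoa*, *Pdk3*, *Pfkfb2*, *Pfkfb3*, *Pgk1* and *Tkt* also lie on both sides of 0, with smaller spreads. Every probe above 0 of *Hk1* is dim (with median centring the brightest probe of *Slc16a1* stood at -0.0037).

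The 3 arrays differed in the size of these ratios. Among the 15 genes past the adjusted P, 9 (60.0%) had their largest ratio on array 1 and 11 (73.3%) their smallest on array 3, where over all genes past the adjusted P these shares were 53.7% and 51.6%. The normalized signals of *Mut* and *WT* did not overlap for 12 of the 15 genes and for 15 of all 36 (41.7%), beside 40.9% of all genes. For the 12 of 15 the like share, among all genes past the adjusted P, was not counted.

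The control array, which has the same dye order without a difference of genotype, gave the same sign as *Mut*/*WT* for 13 of the 15 genes (86.7%), against 82.8% of all genes past the adjusted P. The exceptions were *Slc16a3*, at -0.01, and *Pdha1*, at 0.04. For these 15 genes the log2 ratio of the control array was in the median 0.291 times that of *Mut*/*WT*. When a dye effect estimated for each probe from this array was added to the fit, 14 of the 15 kept their sign, *Ldha* turned to 0.05, *Hif1a* was at 0.0023 ± 0.118 (SE, adjusted P = 0.995), and 0 of the 15 passed the adjusted P by limma, while 9 passed at an unadjusted P under 0.05. Of all genes past the adjusted P without that term, 3.00% still passed it. Of the 331 genes called without it 29.9% were still called with it, and of the 3 of this set 0. *Slc16a1* was then at 0.35 ± 0.12 (SE, adjusted P = 0.209), *Eno1* at -0.79 ± 0.249 (SE, adjusted P = 0.171) and *Egln1* at -0.48 ± 0.162 (SE, adjusted P = 0.2). This fit rests on 1 array for the dye effect, and its standard errors are larger than without it.

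Set against *WT* pool 2 in the same dye, a comparison between arrays that was not tested, the mean of the *Mut* pools had the same sign as *Mut*/*WT* for 12 of the 15 genes (80.0%, and 75.8% of all genes past the adjusted P). *Eno1* had the largest difference, at -0.75, and *Egln1* was at -0.30. *Hk1*, at -0.34, *Pkm*, at -0.35, and *Ldha*, at -0.33, were lower as well. *Slc16a1*, at 0.23, and *Pfkp*, at 0.39, were higher, while *Aldoc*, *Bnip3* and *Eno2* changed sign, at 0.08, 0.08 and 0.04. On the control array, the signal of *WT* pool 1 was closer to the mean of *Mut* than to that of *WT* for 7 of the 15 genes (46.7%, and 32.0% of all genes past the adjusted P), and *WT* pool 2 for 9 (60.0%, and 66.7%).

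**Figure D4:**
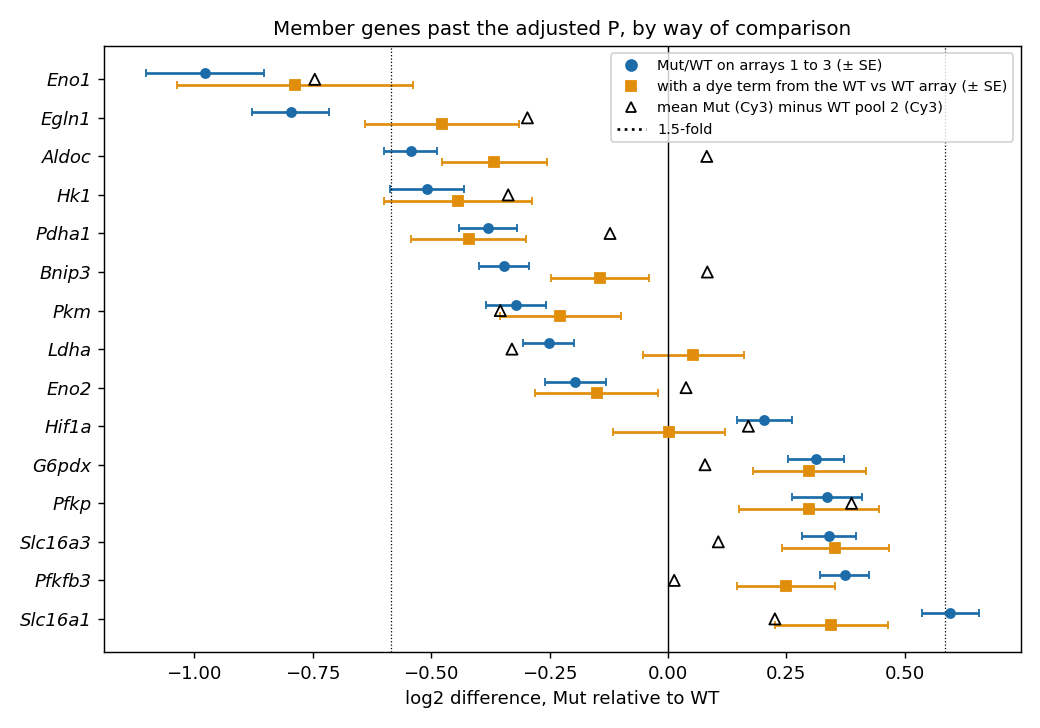
For the 15 genes past the adjusted P, the log2 difference of *Mut* relative to *WT* is plotted as fitted on arrays 1 to 3 (blue circles, bars are SE), with a dye term from the control array (orange squares, bars are SE), and as the mean of the *Mut* pools minus *WT* pool 2 in the same dye (open triangles, no error). *Eno1* stays lowest of the 15 by all 3 ways, at -0.98, -0.79 and -0.75, while *Ldha* with the dye term and *Aldoc*, *Bnip3* and *Eno2* against *WT* pool 2 lie on the other side of 0 (median centring, not plotted, put *Slc16a1*, *Slc16a3*, *Pfkfb3*, *G6pdx* and *Hif1a* below 0).

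The scaling of the arrays also bears on these directions. With each array centred on its median, the median log2 ratio moved to -0.19 over all genes, to -0.50 over the 9352 genes well above background in both channels on all 3 arrays, and to -0.60 over the 36 genes, of which 32 are that bright. Relative to the median of all genes under this centring, *Eno1* was at -1.39, *Egln1* at -1.15, *Slc16a1* at 0.19, *Pfkfb3* at 0.09 and *Pfkp* at 0.57. *Slc16a3*, *G6pdx* and *Hif1a* were at -0.07, -0.09 and -0.13 on that scale, so their direction turned there too. Relative to the bright genes all 6 genes that rose were above 0, by 0.18 to 0.89, and *Eno2* was at 0.12 in place of a fall. The other 8 genes that fell stood lower under this centring than with loess, *Pkm* at -0.94, *Ldha* at -0.96, *Pdha1* at -0.95 and *Bnip3* at -0.93, and relative to the bright genes these 4 were at -0.42 to -0.45.

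Of 92 further genes of these pathways, 89 were matched to a probe. By limma 2 were called lower and 0 higher (at an unadjusted P under 0.05 with the same fold minimum 2 were lower and 0 higher, both by limma and by the methods' *t*-test). Of all genes 0.434% were called higher and 1.59% lower, so 2 of 89 is near that share. Those called were *Ddit4* and *Egln2*. Past the adjusted P alone, 13 rose, 27 fell and 49 did not pass, and the median log2 ratio was -0.04, where 14.4% of all genes rose and 18.6% fell.

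*Ddit4* encodes REDD1, a stress- and hypoxia-induced inhibitor of mTORC1. Its normalized log2 signal was 11.32, 11.38 and 11.18 in *Mut* and 12.02, 11.98 and 11.99 in *WT*, and the log2 ratio of -0.70, -0.60 and -0.81 averaged -0.70 ± 0.0566 (SE, adjusted P = 8.46e-06). With the dye term it was -0.79 and passed both thresholds (adjusted P = 0.00664), yet both *WT* pools of the control array, at 11.38 and 11.29, had the level of *Mut*. *WT* pool 1 differed there by -0.71 from the *WT* mean of arrays 1 to 3.

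*Egln2*, which encodes the prolyl hydroxylase PHD1, had signals of 9.15, 9.25 and 9.50 in *Mut* and of 9.88, 9.93 and 9.99 in *WT*. Its log2 ratio was -0.73, -0.68 and -0.49, a mean of -0.63 ± 0.059 (SE, adjusted P = 2.27e-05), with -0.40 between both *WT* pools. With the dye term it was -0.23 (adjusted P = 0.405). Of the 3 genes of the EGLN family, *Egln1* and *Egln2* thus fell and *Egln3* was near background.

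By list, 5 of 29 further genes of glycolysis and transport rose and 8 fell past the adjusted P, 0 and 3 of 9 of pyruvate entry, 1 and 1 of 8 of the pentose phosphate pathway, 4 and 3 of 11 of the HIF pathway, and 3 and 12 of 32 hypoxia targets, beside 14.4% and 18.6% of all genes. The median log2 ratio was -0.01, -0.08, -0.01, 0.03 and -0.11 in these lists, beside -0.0029 over all genes. These counts are descriptions, since the genes of a list share the same arrays.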

How the data were processed

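RNA of FACS-isolated Six2-positive cells was measured on 4 dual-colour Agilent arrays on 1 slide, scanned together, which leaves no batch to test. Scanner files made with Agilent Feature Extraction 10.7.3.1 were deposited by the authors. The deposited intensity values give both channels and their background, not normalized. The deposited log10 ratios of red over green were background-subtracted and dye-normalized by that program, and the deposited series table repeats them (180072 of 180072 values equal within 1e-06). The GeneSpring values of the paper's methods were not analysed here.

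Here, median signals were background-corrected by normexp (offset 50) and normalized by loess within each array. Control and outlier spots (122 to 162 non-control spots per array) were left out, spots of a probe were averaged, and ratios were turned to Cy3 over Cy5. Channel signals are Aquantile-normalized. Ratios of arrays 1 to 3 were tested against 0 with limma 3.58.1 (R 4.3.3), the P values adjusted by Benjamini-Hochberg over the 41166 probes with a value on all 3, and were called at an adjusted P under 0.05 and over 1.5-fold, the thresholds of the methods. *Mut* and *WT* pools of a number share an array, which pairs them, and their deviations from the group means correlated at 0.388, 0.431 and 0.32. The scripts were tested on simulated data.

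Symbols of 22951 of 41174 probes (55.7%) came through their accessions from a GRCm38.p6 table, used for names only. The genes named are all genes of the set, *Atp6ap2*, and the further pathway genes called at their brightest probe. Marker genes named beside their sums were chosen after their values were seen. The set and the lists of pathway and marker genes were chosen with earlier results of these data known. The number of arrays limits the precision. Alternatives were the deposited log ratios, offset 0, median centring, outlier spots kept, dim probes left out, a dye term, unpaired channels, each array left out, the methods' *t*-test, the unadjusted P, no fold minimum and the median over a gene's probes.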

Additional observations from a re-analysis of the deposited data

How the results depend on the processing

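Of the 36 genes 1 was called higher and 2 lower, and of their probes 2 and 2. Offset 0, median centring, the dye term and the methods' *t*-test each left 0 genes and 0 probes of the set in either direction by limma or the *t*-test. Offset 0, median centring and the *t*-test also left 0 of all 41166 probes, so these zeros are not particular to the set, while the dye term left 146 probes higher and 177 lower. In the set, at an unadjusted P under 0.05 and 1.5-fold 6 genes passed with offset 0, 19 with median centring (all lower), 1 with the dye term and 2 with the *t*-test. The shares of all genes by this unadjusted rule were not counted, so these counts do not set the genes apart. Median centring moved bright genes down as a whole, to a median of -0.50 over 9352 genes. The median over a gene's probes left 0 higher, with *Slc16a1* at 0.58. The deposited log ratios gave 3 probes higher, 2 of *Slc16a1* and a dim one of *Hk1*, and 1 gene and 1 probe lower, *Aldoc*, and not *Eno1* (-1.01, adjusted P = 0.122) or *Egln1* (-0.95, adjusted P = 0.0778). Of all 41166 probes, 1489 were called higher and 1216 lower with these ratios, beside 227 and 600 in the main fit. No fold minimum gave 6 genes and 8 probes higher and 9 genes and 14 probes lower. Without each array in turn, 0 to 1 genes and 0 to 2 probes were higher, 0 of both without array 1, and 2 to 3 genes and 2 to 5 probes lower, 5 without array 3. Of all 41166 probes, 216, 241 and 290 were called higher and 390, 609 and 917 lower without array 1, 2 and 3. Of the further pathway genes, 0 higher and 2 lower became 2 and 1 with the deposited log ratios, 13 and 27 with no fold minimum, 0 and 1 with the dye term, and 0 lower with offset 0, median centring and the *t*-test. They were 0 to 0 higher and 2 to 3 lower without each array. The median over the genes, -0.0018, moved to -0.60 with median centring and -0.024 with the dye term. Unpaired channels, without the replicate block, left 1 gene higher and 2 lower. The causes of these changes were not tested.

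With the dye term the direction turned for *Slc2a1* (0.029), *Hk2* (0.46), *Gpi1* (-0.037), *Pfkl* (0.022), *Aldoa* (0.071), *Pgk1* (-0.0058), *Pfkfb2* (-0.18), *Ldha* (0.053), *Pdk1* (0.061), *Pdk3* (-0.043), *Tkt* (-0.33), *Taldo1* (-0.0046), *Epas1* (-0.17), *Car9* (-0.031) and *Ankrd37* (-0.018). With median centring it turned for *Slc2a3* (-0.15), *Slc16a1* (-0.0037), *Slc16a3* (-0.25), *Gpi1* (-0.67), *Pfkm* (-0.54), *Tpi1* (-0.63), *Pgk1* (-0.64), *Pfkfb2* (-0.17), *Pfkfb3* (-0.10), *Pdk3* (-0.47), *G6pdx* (-0.28), *Tkt* (-0.66), *Taldo1* (-0.61), *Hif1a* (-0.32), *Egln3* (0.042) and *Ankrd37* (-0.28). The deposited log ratios turned *Slc2a3* (-0.027), *Hk2* (0.044) and *Epas1* (-0.13), offset 0 *Hk2* (0.028), and the median over probes *Pgk1* (-0.012) and *Pfkfb2* (-0.021). Leaving out 1 array turned *Slc2a3* without array 3 (-0.079 to 0.046), *Hk2* without array 3 (-0.095 to 0.071), *Pgam1* without array 1 (-0.014 to 0.0056), *Pfkfb2* without array 1 (-0.0019 to 0.13), *Pdk3* without array 2 (-0.015 to 0.079), *Tkt* without array 3 (-0.029 to 0.085), *Epas1* without array 2 (-0.017 to 0.055) and *Car9* without array 1 (-0.034 to 0.13), given as the range over the arrays left out in turn. In all, 45 values turned, and 365 kept their direction and were called, or not called, as before. Of these 365, 61 lost the adjusted P alone and 1 gained it. Over all 16355 genes, 33% passed the adjusted P in the main fit and 12.2% with the deposited log ratios. The share was 22.8% with unpaired channels and 26.2%, 20.9% and 32.1% without array 1, 2 and 3. It was 0% with offset 0, median centring and the *t*-test. For the unadjusted P and the median over probes it was not counted. The counts of the set follow. Of the 15 genes past the adjusted P, 0 passed with offset 0, median centring, the dye term (all by limma) or the *t*-test (13, 9, 9 and 8 at an unadjusted P under 0.05), 5 with the deposited log ratios, 11 with unpaired channels (without the replicate block), 14, 13 and 14 without array 1, 2 and 3, and 13 with the median over probes, which *Pfkfb3* and *Eno2* did not pass.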
